A study of Mus musculus with 8 samples.

Results

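The 10 genes Amh, Amhr2, Bmpr1a, Bmpr1b, Bmpr2, Smad1, Smad2, Smad3, Smad4 and Smad5 encode anti-Müllerian hormone (AMH), its type II receptor, the BMP receptors and the SMAD proteins that carry their signals to the nucleus. They were chosen by name, as 10 of the 35087 rows that carry a gene name in the deposited tables, and their values are given for every library. All 10 passed the filter on low counts. The libraries hold RNA of granulosa cells, the somatic cells around the oocyte, which were laser-microdissected from cryosections of mouse ovaries and amplified by the Smart-seq2 method. The mutant females (cKO, 2 libraries) were Hif1aflox/flox; Foxl2-CreERT2, in which tamoxifen activates a Cre recombinase driven by the granulosa cell gene Foxl2, and their comparators (WT, 6 libraries) were Hif1aflox/flox without Cre. Mice of both groups thus carried floxed Hif1a and received tamoxifen (100 mg/kg a day for 5 days, from 3 weeks of age), and 7 days passed between the last injection and the collection of ovaries. In the labels the cKO genotype stands as a knockdown, and the library names given to the WT samples also start with cKO. Titles were followed for the grouping, and this doubt touches every comparison. The exon that Cre removes is not named, so total Hif1a reads are a limited check of deletion. No label gives the animal or follicle stage behind a library, so p-values measure the spread between these libraries, which may be technical.

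AMH is made by granulosa cells of small growing follicles, where it is known to restrain the recruitment of further follicles and the response to follicle-stimulating hormone, and it falls in large antral follicles. It binds AMHR2, which then activates the type I receptors that BMPs also use, among them the products of Bmpr1a and Bmpr1b. BMP2, BMP4, BMP6, BMP7 and the oocyte factor BMP15 signal through these type I receptors together with the type II receptor BMPR2. Activated type I receptors of this group phosphorylate SMAD1, SMAD5 and SMAD9, while receptors for activin, TGF-β and the oocyte factor GDF9 phosphorylate SMAD2 and SMAD3, and both kinds enter the nucleus with the shared partner SMAD4.

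Library depth lay between 651426 and 4719293 reads on named genes, the lowest being cKO replicate 2, in which 3 reads correspond to 4.10 CPM. Hif1a, the floxed gene, was at 22.3 and 13.7 CPM in the 2 cKO libraries and between 35.5 and 106.2 CPM in the 6 WT libraries. The granulosa marker Foxl2 was present in every library, at 126.4 and 88.8 CPM in cKO and at 91.4 to 332 CPM in WT. Fshr was the granulosa marker whose groups did not overlap, at 10.7 and 6.83 CPM in cKO and 40.7 to 129 CPM in WT. The 10 granulosa markers together summed to 5159 and 1870 CPM in cKO. In WT replicates 1 to 6 they summed to 3226, 8448, 22799, 68471, 45526 and 25005 CPM, so replicates 1 and 2 were the lowest in WT. Mitochondrial genome transcripts took 8.87% and 10.5% of reads in cKO and 1.42% to 3.65% in WT, and 12847 and 12120 genes had at least 5 reads in cKO, against 13597 to 14727 in WT. Marker sums of other cell types overlapped between the groups in 7 of 8 lists. The 12 oocyte markers summed to 58.9 and 31.4 CPM in cKO, and in WT to 2161, 694 and 199 CPM in replicates 6, 2 and 1 and to at most 23.7 CPM in the 3 others, with Nobox and Dppa3 at 0 in cKO, and the 7 stroma markers summed to 1341 and 372 CPM in cKO and to 16.6 to 1002 CPM in WT. The leukocyte sum (6 genes) was 55.8 and 35.5 CPM in cKO, above all WT libraries at 1.69 to 34.3 CPM. The part of these differences in the results below was not tested, except that the number of detected genes was entered as a covariate. In RNA from dissected tissue, fewer cells of a type and less RNA per cell cannot be told apart.

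Across the 10 genes, no difference between cKO and WT passed the threshold. Bmpr1b and Bmpr2 had the lowest fitted values in cKO relative to WT, with log2 fold changes of -1.92 and -1.81. Fitted values of the remaining genes lay between -1.23 for Smad2 and 0.22 for Amh. In all, 9 of the 10 log2 fold changes were below 0, with a median of -0.79, where 52.7% of the 15102 genes tested were below 0 and their median was -0.08. At an adjusted p under 0.05 (edgeR's quasi-likelihood test, Benjamini-Hochberg over all genes), 0 of 10 were called, as were 0% of all genes. At an unadjusted p under 0.05, 2 of 10 were lower in cKO, Bmpr1b and Bmpr2, beside 8.89% of all genes, and 0 of 10 were higher, beside 3.4%. DESeq2 gave an adjusted p to 8 of the 10 and called 0 of them, while it called 3.98% of the genes to which it gave one.

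**Figure D1:**
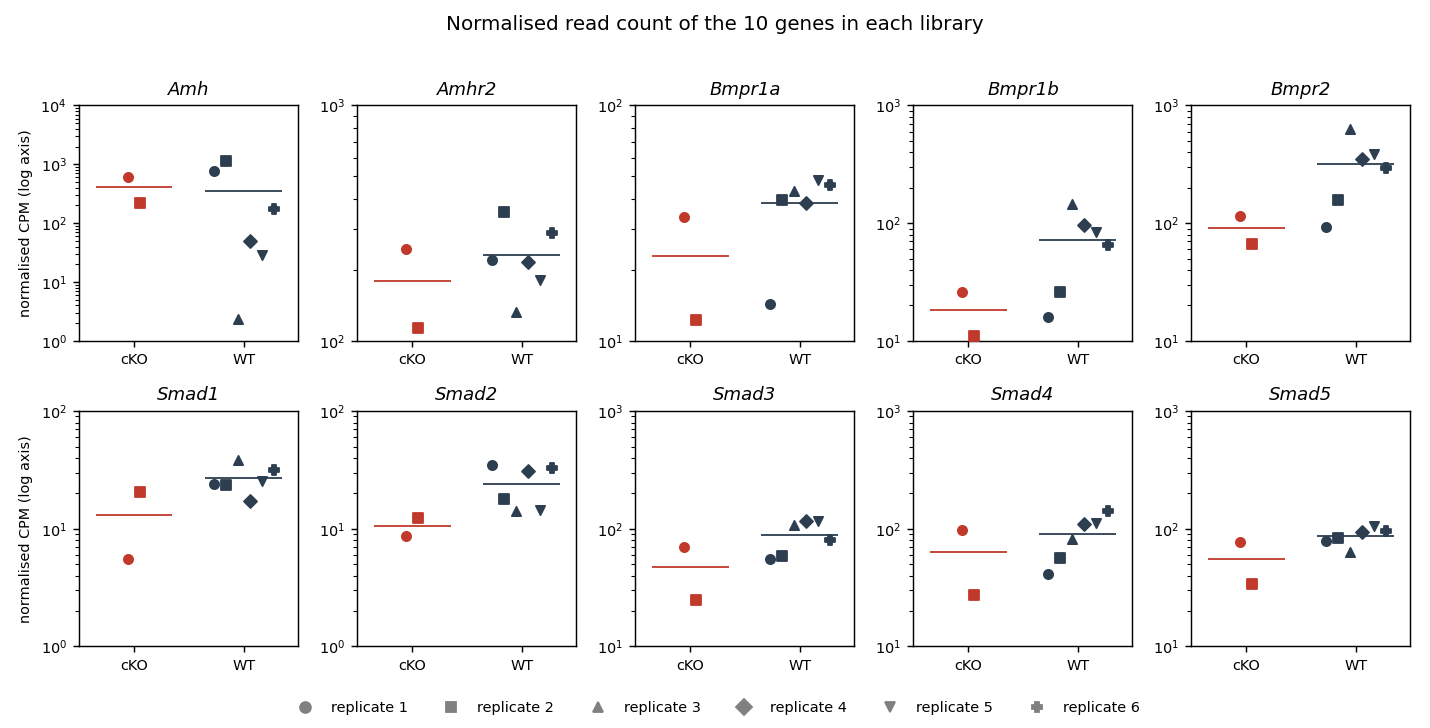
Normalised read count (CPM after TMM scaling, log axis) of each gene in the 2 cKO libraries (red) and the 6 WT libraries (dark blue), with group means as lines and replicate numbers as symbols. Smad2 is the panel in which the groups do not overlap. In Amh, Bmpr1b, Bmpr2, Smad3 and Smad4 the WT libraries numbered 3 to 6 lie apart from those numbered 1 and 2.

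The ligand gene Amh varied far more within WT than between the groups. Amh (ENSMUSG00000035262.5, GRCm38 chromosome 10, 80805243 to 80807648, plus strand, a gene with 1 annotated transcript) stood at 610.0 CPM in cKO replicate 1 and at 224 CPM in cKO replicate 2, from 1202 and 164 reads. In WT replicates 1 to 6 it had 767, 1126, 2.34, 49.8, 29.2 and 176 CPM. The highest WT value was 481 times the lowest, which rested on 6 reads in WT replicate 3 (95% Poisson interval up to 5.09 CPM). Both cKO libraries lay between the WT libraries numbered 1 and 2, which were higher, and those numbered 3 to 6, which were lower. In 5.5% of all genes, WT replicates 3 to 6 were likewise all below the 4 other libraries, a set that was chosen from these data. Group means, with the SD of 2 and 6 libraries here and below, were 417 ± 273 CPM in cKO and 358 ± 473 CPM in WT. The log2 fold change was 0.22 ± 1.34 (SE), with an adjusted p = 0.957 in edgeR and a change of sign to -0.74 without cKO replicate 1 and to -1.11 when the libraries numbered 1 and 2 of both groups were compared without the others. That set of libraries was picked with earlier results of these data known, Amh among them.

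By a fixed rule, the genes whose profile over the 8 libraries was most like that of Amh were Cep85, Smyd5, Mettl1, Tmem184a and Icosl, with Pearson's r of log2 CPM between 0.96 and 0.98 among 7572 genes compared. Tmem184a, for example, had 163.9 and 66.9 CPM in cKO, and 79.1, 226, 1.95, 33.8, 20.8 and 38.6 CPM in WT. Amh was lower in WT replicates 3 to 6 than in all other libraries, and no likeness beyond that split can be read from these r values.

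Amhr2, which encodes the receptor that binds AMH and no other known ligand, was the steadier partner. Amhr2 (ENSMUSG00000023047.11, chromosome 15, 102445367 to 102454633, plus strand) had 246 and 113 CPM in cKO. In order of their numbers, the WT libraries had 221, 354, 132, 216, 181 and 286 CPM. The groups overlapped, with cKO replicate 1 above 4 of the 6 WT libraries and cKO replicate 2 below all of them. The highest WT value was 2.68 times the lowest. Means were 179.7 ± 93.9 CPM in cKO and 232 ± 78.3 CPM in WT. The log2 ratio of cKO over WT was -0.36 ± 0.49 (SE), with an adjusted p = 0.781 in edgeR. It was 0.03 without cKO replicate 2. The genes most like Amhr2 over the 8 libraries were Ccnd2, which encodes the cyclin D2 that granulosa cells use to divide, then Slc3a2, Ppm1g, Hsp90aa1 and Fscn1, with Pearson's r between 0.96 and 0.98. These were the highest r values among 7572 genes compared over 8 libraries, and no link in function can be read from them.

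Within a library, reads on Amh outnumbered those on Amhr2 by 2.48 and 1.98 to 1 in cKO replicates 1 and 2. The same ratio was 3.46 and 3.18 in WT replicates 1 and 2, and 0.0177, 0.230, 0.161 and 0.614 in WT replicates 3 to 6. It was therefore above 1 in both cKO libraries and in WT libraries numbered 1 and 2, and below 1 in the other 4. This ratio needs no scaling between libraries. The mean log2 ratio was 1.15 ± 0.23 in cKO (SD, n = 2) and -1.30 ± 2.89 in WT (SD, n = 6), and the difference of 2.45 gave p = 0.321 in a two-sided exact permutation test with 28 splits (adjusted p = 0.595 over 5 ratios), where 0.0357 is the smallest p the design allows.

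The 250 bases before the start of Amhr2 are shown beside those before a listed start of Bmpr1b and before the start of Smad3. Bmpr1b and Smad3 were higher in WT replicates 3 to 6 than in all other libraries, and Amhr2 did not show this split. The choice does not set a steady gene against variable ones. The coefficient of variation in WT was 33.8% for Amhr2, 31.7% for Smad3 and 65.9% for Bmpr1b. Sequences are RefSeq's, on GRCm38.p6, 5′ to 3′ on the strand of the gene. Windows were read for 7 of the 10 genes, a count that does not show how many of the 10 RefSeq's table lists. Bmpr1b has 3 starts in that table, of which the first listed is given. All 3 lie inside the annotated gene, whose 5′ end is at 142169425, so the window shown is not the region before that end. Capitals mark AAGGTC, the motif of the NR5A receptors (SF-1 and LRH-1, from Nr5a1 and Nr5a2), and GATAA, a core bound by GATA factors, searched on both strands together with GTAAACA (forkhead factors) and GGCGCC (BMP SMADs).
Amhr2, chr15:102445117-102445366, plus strand: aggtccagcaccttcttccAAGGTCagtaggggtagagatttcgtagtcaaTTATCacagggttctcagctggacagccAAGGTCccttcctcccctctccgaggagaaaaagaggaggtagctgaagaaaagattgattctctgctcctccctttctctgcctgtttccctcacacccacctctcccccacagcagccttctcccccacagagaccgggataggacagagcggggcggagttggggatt
Bmpr1b, chr3:141982265-141982514, minus strand: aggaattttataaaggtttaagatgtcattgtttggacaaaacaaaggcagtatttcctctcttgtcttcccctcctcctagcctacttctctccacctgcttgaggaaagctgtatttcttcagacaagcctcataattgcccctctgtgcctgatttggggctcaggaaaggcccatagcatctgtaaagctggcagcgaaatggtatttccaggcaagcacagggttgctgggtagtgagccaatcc
Smad3, chr9:63757995-63758244, minus strand: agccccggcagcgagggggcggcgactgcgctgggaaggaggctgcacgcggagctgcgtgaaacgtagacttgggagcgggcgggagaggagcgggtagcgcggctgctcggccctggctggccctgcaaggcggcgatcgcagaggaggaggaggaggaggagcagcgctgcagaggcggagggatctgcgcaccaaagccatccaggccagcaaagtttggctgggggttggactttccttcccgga
The Amhr2 window held AAGGTC at 2 places and GATAA at 1, and neither GTAAACA nor GGCGCC. The Bmpr1b and Smad3 windows shown held none of the 4 motifs. The window of Bmpr2, which was likewise higher in WT replicates 3 to 6 and is not printed because it overlaps an annotated exon, held GGCGCC at 1 place, so the genes of that pattern did not share this absence. Other windows were read and not printed. Starts 1 and 2 of Smad5 held AAGGTC at 1 place each, and start 3 held GATAA at 2 places. Start 2 of Smad5 and the Bmpr1a window held GGCGCC at 1 place each, and the Smad1 window held no match. AAGGTC and GATAA were thus not particular to Amhr2 among the genes read. Of 32851 promoter windows of 250 bases, 10.6% held AAGGTC, 22.6% GATAA, 3.17% GTAAACA and 9.59% GGCGCC. A match is a description of letters and not a site.

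Of both BMP type I receptor genes, Bmpr1b had the wider range in WT. Bmpr1b (ENSMUSG00000052430.15, chromosome 3, 141837136 to 142169425, minus strand), in which a variant raises the ovulation rate of sheep, had 25.9 and 10.9 CPM in cKO. In WT replicates 1 to 6 it had 15.9, 26.2, 144, 97.2, 84.0 and 65.0 CPM. Both cKO libraries and WT replicates 1 and 2 lay at or below 26.2 CPM, and WT replicates 3 to 6 at or above 65.0 CPM, and the groups overlapped through WT replicate 1, which lay within the cKO range. Means were 18.4 ± 10.6 CPM in cKO and 72.1 ± 47.5 CPM in WT. The log2 fold change was -1.92 ± 0.78 (SE), with an unadjusted p = 0.0279 and an adjusted p = 0.378 in edgeR and an adjusted p = 0.119 in DESeq2. Among the libraries numbered 1 and 2 it was -0.09, and without any filter on low counts the edgeR adjusted p = 0.0459, in a fit that called 478 genes.

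Bmpr1a (ENSMUSG00000021796.15, chromosome 14, 34410734 to 34503341, minus strand), the other BMP type I receptor gene among the 10, had 33.5 and 12.3 CPM in cKO. WT replicates 1 to 6 had 14.3, 39.6, 43.3, 38.7, 48.2 and 46.0 CPM. WT replicate 1 lay close to cKO replicate 2, and the 5 other WT libraries lay within 38.7 to 48.2 CPM, above both cKO libraries. The means were 22.9 ± 14.99 CPM in cKO and 38.4 ± 12.3 CPM in WT. On the log2 scale, cKO over WT came to -0.71 ± 0.56 (SE), with an adjusted p = 0.610 in edgeR. It was -0.12 among the libraries numbered 1 and 2. Only 9 reads of Bmpr1a and 8 of Bmpr1b were counted in cKO replicate 2, with 95% Poisson intervals of 5.62 to 23.3 CPM and 4.72 to 21.5 CPM that cover counting error only. Bmpr1a shares exon bases with Gm17110 on the opposite strand, and the method does not mark strand.

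The balance of both type I receptor genes differed between libraries. There were 0.773 and 0.889 reads on Bmpr1b for each on Bmpr1a in cKO replicates 1 and 2. The ratio was 1.12, 0.662, 3.33, 2.51, 1.74 and 1.41 in WT replicates 1 to 6. WT replicates 3 to 6 were above all other libraries. The difference in mean log2 ratio between cKO (-0.27 ± 0.14, SD, n = 2) and WT (0.65 ± 0.83, SD, n = 6) was -0.93, with p = 0.214 in the exact permutation test and an adjusted p = 0.595 over 5 ratios.

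Bmpr2 (ENSMUSG00000067336.6, chromosome 1, 59763400 to 59879014, plus strand), the type II receptor gene for BMPs, showed the same split of the libraries as Bmpr1b. It had 115.7 and 66.9 CPM in cKO. It had 92.3, 158, 637, 353, 390.2 and 295 CPM in WT replicates 1 to 6. WT replicates 3 to 6 were all above the 4 other libraries, and the groups overlapped through WT replicate 1, which lay within the cKO range. Means were 91.3 ± 34.5 CPM in cKO and 321 ± 192 CPM in WT. The log2 fold change of -1.81 ± 0.69 (SE) had an unadjusted p = 0.0206 and an adjusted p = 0.374 in edgeR, and an adjusted p = 0.0749 in DESeq2. It was -0.36 among the libraries numbered 1 and 2. Bmpr1b, Bmpr2 and Smad3 were the 3 of 10 genes with WT replicates 3 to 6 above all other libraries, a pattern found in 7.19% of the genes tested.

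**Figure D2:**
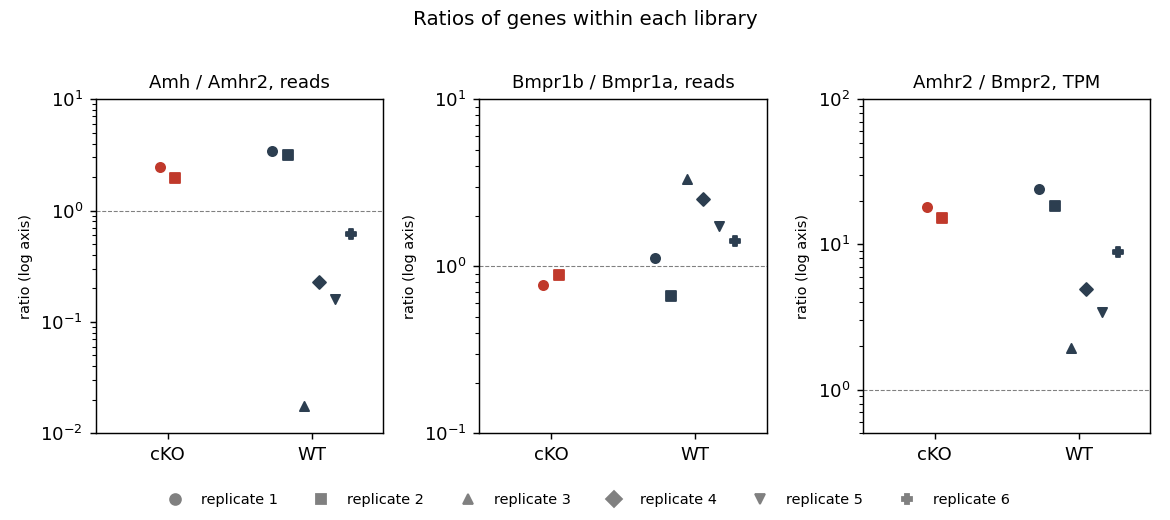
Ratio of reads on Amh and Amhr2 (left), of reads on Bmpr1b and Bmpr1a (middle), and of the deposited TPM of Amhr2 and Bmpr2 (right) within each library, on log axes, with cKO in red, WT in dark blue and a dashed line at 1. The cKO libraries sit beside WT replicates 1 and 2 for Amh over Amhr2, at 1.98 to 3.46 across these 4 libraries, and WT replicates 3 to 6 lie at 0.614 or below.

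Smad5 and Smad1 encode the SMADs that AMH and BMP receptors activate, and Smad5 was the steadier across WT. Smad5 (ENSMUSG00000021540.16, chromosome 13, 56703010 to 56742377, plus strand) had 76.6 and 34.1 CPM in cKO. The 6 WT libraries, in order, had 78.0, 83.6, 63.6, 94.0, 104.8 and 95.1 CPM. The WT libraries differed by 1.65 times at most, and the coefficient of variation of 16.9% in WT was at the 2.08th percentile of all genes tested, the lowest of the 10. Smad5 shares exon bases with Gm27301. It averaged 55.4 ± 30.04 CPM in cKO and 86.5 ± 14.7 CPM in WT. On the log2 scale, cKO over WT came to -0.63 ± 0.43 (SE), with an adjusted p = 0.557 in edgeR. In cKO replicate 1 it was within the WT range and in cKO replicate 2 below it, and the value was -0.25 without cKO replicate 2.

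Smad1 (ENSMUSG00000031681.16, chromosome 8, 79338395 to 79399518, minus strand) had 5.58 and 20.5 CPM in cKO. Its WT values, from replicate 1 to 6, were 24.2, 23.8, 38.2, 17.2, 25.6 and 31.9 CPM. Here cKO replicate 1 was the lowest library, with 11 reads, while cKO replicate 2 lay above WT replicate 4. Smad1 averaged 13.04 ± 10.5 CPM in cKO and 26.8 ± 7.30 CPM in WT. On the log2 scale, cKO over WT came to -1.11 ± 0.63 (SE), with an adjusted p = 0.479 in edgeR. Leaving out cKO replicate 1 gave -0.45, and leaving out cKO replicate 2 gave -2.31. The ratio of Smad5 to Smad1 reads, whose mean log2 value was 2.26 ± 2.15 in cKO and 1.72 ± 0.57 in WT, differed by 0.54 (exact permutation p = 0.536, adjusted p = 0.670).

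On normalised CPM, Smad2 was the gene of the 10 in which the groups did not overlap. On the deposited TPM its groups overlapped, with 10.6 TPM in cKO replicate 2 and 5.54, 9.86 and 6.99 TPM in WT replicates 3, 4 and 5. Smad2 (ENSMUSG00000024563.16, chromosome 18, 76241580 to 76310963, plus strand), an activin and TGF-β SMAD, had 8.63 and 12.3 CPM in cKO, from 17 and 9 reads. In WT it had, by replicate number, 35.2, 17.8, 14.0, 30.7, 14.5 and 32.95 CPM. Both cKO libraries lay below all 6 WT libraries, as they did in 6.41% of all genes, and the gap between cKO replicate 2 and WT replicate 3 was within the counting interval of cKO replicate 2 (5.62 to 23.3 CPM). The means were 10.5 ± 2.59 CPM in cKO and 24.2 ± 9.78 CPM in WT. On the log2 scale, cKO over WT came to -1.23 ± 0.64 (SE), with an unadjusted p = 0.0758 and an adjusted p = 0.444 in edgeR. Smad2 was the gene that moved least when only the libraries numbered 1 and 2 were compared, at -1.29, and it stayed between -1.55 and -1.01 when each library was left out in turn.

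Smad3 (ENSMUSG00000032402.12, chromosome 9, 63646767 to 63757994, minus strand), the other SMAD of that branch, had 70.5 and 24.6 CPM in cKO. WT replicates 1 to 6 had 55.5, 58.2, 107, 117, 116 and 80.7 CPM. WT replicates 3 to 6 were again the 4 highest, and cKO replicate 1 lay between them and WT replicates 1 and 2. Smad3 averaged 47.6 ± 32.5 CPM in cKO and 89.1 ± 28.2 CPM in WT. On the log2 scale, cKO over WT came to -0.88 ± 0.51 (SE), with an adjusted p = 0.487 in edgeR. It was -0.18 among the libraries numbered 1 and 2. The ratio of Smad3 to Smad2 reads had a mean log2 value of 2.02 ± 1.44 in cKO and 1.92 ± 0.92 in WT (exact permutation p = 0.929, adjusted p = 0.929).

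Smad4 (ENSMUSG00000024515.13, chromosome 18, 73639009 to 73703780, minus strand), the partner shared by both branches, had 98.4 and 27.3 CPM in cKO. WT replicates 1 to 6 had 41.2, 56.9, 81.9, 110.5, 111 and 141 CPM. The cKO libraries spanned most of the WT range, with cKO replicate 1 above 3 WT libraries. Smad4 averaged 62.9 ± 50.3 CPM in cKO and 90.5 ± 37.5 CPM in WT. For cKO over WT the log2 value was -0.50 ± 0.57 (SE), with an adjusted p = 0.728 in edgeR. Its sign turned to 0.05 without cKO replicate 2 and to 0.44 among the libraries numbered 1 and 2.

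A single library was often the lowest. In 7 of the 10 genes, cKO replicate 2 was the lowest of all 8 libraries, which held for 22.2% of the genes tested. The exceptions were Amh, Smad1 and Smad2. This library is also the shallowest and has the fewest detected genes, and the part of depth in these values was not tested.

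**Figure D3:**
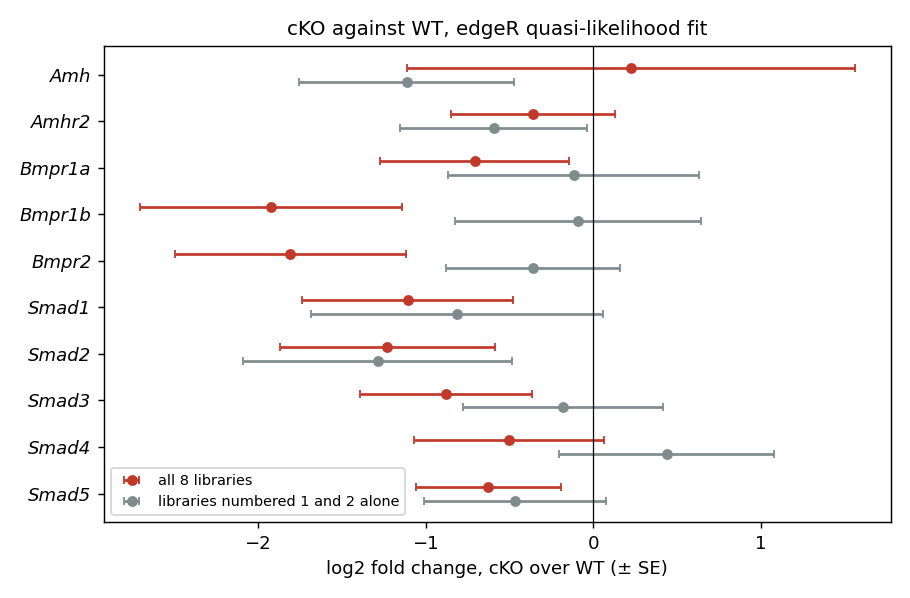
Log2 fold change of each gene, cKO over WT, with its standard error, in all 8 libraries (red) and in the libraries numbered 1 and 2 alone (grey). Bmpr1b and Bmpr2 lie at -1.92 and -1.81 in all libraries and at -0.09 and -0.36 in the smaller set, while Smad2 lies at -1.23 and -1.29.

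Levels between genes were compared per length, with the deposited TPM. Amhr2 and Amh had the highest medians over the 8 libraries, 150.1 and 134 TPM, and Amhr2 was above Amh in 4 of 8 libraries, so their order was not fixed. Amh was the highest of the 10 in both cKO libraries (309.5 and 155.7 TPM) and in WT replicates 1 and 2, and Amhr2 in WT replicates 3 to 6, where Amh was at 1.68 TPM in replicate 3. The order of Amh and Amhr2 depends on the measure. Reads over the deposited effective length put Amhr2 above Amh in both cKO libraries and in WT replicates 1 and 2. Smad4 followed with a median of 24.9 TPM and was above Bmpr2, at 17.4 TPM, in 7 of 8 libraries. Smad3, Smad5, Smad2, Bmpr1b, Bmpr1a and Smad1 had medians between 13.6 and 7.17 TPM, and no neighbours among them kept 1 order in more than 5 of 8 libraries. The levels of both type II receptor genes stood in different proportions. The TPM of Amhr2 was 18.2 and 15.2 times that of Bmpr2 in cKO, and 24.0, 18.3, 1.92, 4.92, 3.43 and 8.85 times in WT replicates 1 to 6. The test used the ratio of reads, which is not scaled by length. On reads, Bmpr2 exceeded Amhr2 in WT replicates 3 to 6 (log2 ratio of Amhr2 to Bmpr2 from -2.27 to -0.04). In the other libraries Amhr2 exceeded Bmpr2 (0.76 to 1.26). The mean log2 read ratio was 0.92 ± 0.23 in cKO and -0.28 ± 1.37 in WT (SD). The difference was 1.21 (exact permutation p = 0.357, adjusted p = 0.595).

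Each gene has a deposited effective length, assigned by the authors' quantification. The deposited TPM did not follow from reads and this length alone. In cKO replicate 1, Amh had 1202 reads, 1447 bases and 309.5 TPM, and Amhr2 had 485 reads, 305.6 bases and 170.4 TPM. Reads over length were thus higher for Amhr2 and TPM higher for Amh, and the cause was not tested. For Amhr2 the effective length was 295 to 332 bases, where the longest annotated transcript has 1938 bases, and for Amh 1436 to 1477 bases of 1670. The effective length of Smad2 was 157 to 440 bases, and the highest Smad2 value, 51.1 TPM in WT replicate 1, came with the shortest of these lengths. With TPM in place of counts the log2 fold change of Bmpr1a, on the log2(TPM + 1) scale, was 0.02.

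Other genes of the pathway were read from 8 lists, which hold 72 different names. Among 15 ligand genes, 11 were tested, of which 6 had a log2 fold change below 0 and 5 above, with a median of -0.64 (0.10 without WT replicate 6) and 0 at an unadjusted p under 0.05. The oocyte factor Gdf9 had 11.7 and 5.46 CPM in cKO, and 35.2, 88.3, 1.56, 9.43, 0.453 and 511 CPM in WT replicates 1 to 6. It was highest in WT replicates 6, 2 and 1, which were also the 3 libraries with the largest sums of oocyte markers (2161, 694 and 199 CPM), a list that holds Gdf9. Bmp15, its close relative, rested on 3 reads in cKO. Bmp2, Bmp4, Bmp6 and Bmp7, other ligand genes of these receptors, had at most 16.6 CPM in every library.

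Of the 12 other receptors and coreceptors, 11 were tested, with 5 below 0 and 6 above and a median of 0.32. Tgfbr1, a TGF-β type I receptor gene, averaged 101.0 ± 44.5 CPM in cKO and 60.9 ± 31.6 CPM in WT (cKO over WT, 0.72 ± 0.50 on the log2 scale, adjusted p = 0.558 in edgeR), or 0.13 without cKO replicate 2. Acvr1b, an activin type I receptor gene, averaged 7.53 ± 8.72 CPM in cKO and 18.5 ± 12.3 CPM in WT (cKO over WT, -1.18 ± 0.88 on the log2 scale, adjusted p = 0.585 in edgeR). Acvr1, a further type I receptor gene for AMH and BMPs, had 15.7 and 9.56 CPM in cKO and between 0.549 and 19.5 CPM in WT.

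The inhibitory SMADs lay in opposite directions, and neither passed. Smad7, which blocks both branches, had 65.5 and 61.5 CPM in cKO, and 47.3, 61.5, 19.9, 11.6, 14.5 and 23.6 CPM in WT replicates 1 to 6 (cKO over WT, 1.10 ± 0.58 on the log2 scale, adjusted p = 0.452 in edgeR). Smad6, which acts mainly on BMP signals, had 5.58 and 6.83 CPM in cKO, and 4.40, 18.04, 31.6, 14.5, 10.2 and 45.8 CPM in WT (cKO over WT, -1.76 ± 0.89 on the log2 scale, adjusted p = 0.437 in edgeR). WT replicate 2 overlapped the cKO values of Smad7, and WT replicate 1 lay below those of Smad6. Smad9 was not tested, with 35 reads in all libraries together.

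Extracellular BMP antagonists had 7 tested members, 6 below 0 and 1 above, with a median of -0.80 (-2.79 without cKO replicate 2). Grem1, which encodes a secreted BMP antagonist, had 2 reads in cKO, and 1.10, 1.37, 10.9, 29.0, 35.1 and 4.58 CPM in WT replicates 1 to 6 (adjusted p = 0.380 in edgeR). At so few reads the size of the difference is uncertain, and Grem1 was lower in WT replicates 1 and 2 than in WT replicates 3 to 6.

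Among 10 intracellular inhibitors, 6 were below 0 and 4 above, where 52.7% of all genes were below 0. Their median of -0.11 was 0.03 without WT replicate 6. At an unadjusted p under 0.05, 3 of the 10 were lower, beside 8.89% of all genes. Fkbp1a, whose product holds type I receptors inactive, averaged 75.7 ± 41.4 CPM in cKO and 215 ± 74.4 CPM in WT (cKO over WT, -1.49 ± 0.55 on the log2 scale, adjusted p = 0.369 in edgeR). Smurf2, the third of these, had 10.7 and 24.6 CPM in cKO and 23.2 to 53.9 CPM in WT. Smurf1, a ubiquitin ligase gene for BMP SMADs, averaged 11.7 ± 2.84 CPM in cKO and 31.4 ± 13.2 CPM in WT (cKO over WT, -1.45 ± 0.62 on the log2 scale, adjusted p = 0.381 in edgeR). In the list of SMAD anchors, coactivators and phosphatases, 5 of 7 were below 0, and 1 of 7 was lower at an unadjusted p under 0.05, beside the same 8.89%. This was Ctdsp1, the gene of a small C-terminal domain phosphatase, with 21.8 and 13.7 CPM in cKO and 45.2 to 82.4 CPM in WT, without overlap, as in 6.41% of genes in this direction (cKO over WT, -1.75 ± 0.47 on the log2 scale, adjusted p = 0.369 in edgeR, adjusted p = 0.0271 in DESeq2). It was -1.57 among the libraries numbered 1 and 2. Ctdsp2, its relative, was at -0.85 ± 0.52 (edgeR adjusted p = 0.513).

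Among genes that BMP SMADs are known to induce, 7 were tested. Of these, 3 were below 0 and 4 above, with a median of 0.09 that was -0.76 without cKO replicate 2, and 0 had an unadjusted p under 0.05. Id3, an inhibitor of basic helix-loop-helix factors, had 465 and 170.7 CPM in cKO, and 247, 847, 825, 1284, 553 and 768 CPM in WT (cKO over WT, -1.24 ± 0.65 on the log2 scale, adjusted p = 0.447 in edgeR). Id1 had 147 and 32.8 CPM in cKO and 39.5 to 149.0 CPM in WT. Smad6 and Smad7, given above, are counted in this list as well.

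Factors known to act on the Amh promoter, of which 7 of 8 were tested, had a median of 0.82, with 3 below 0 and 4 above. That median depended on the libraries used and on the fit. It was -0.31 without cKO replicate 1 and -0.13 with the replicate number as a block. It was 0.04 without a filter on low counts and 0.11 among the libraries numbered 1 and 2. Wt1 had 108.6 and 71.0 CPM in cKO, and 69.8, 36.6, 13.3, 18.1, 4.08 and 6.55 CPM in WT replicates 1 to 6, without overlap, as in 6.02% of genes in this direction (cKO over WT, 1.88 ± 0.76 on the log2 scale, unadjusted p = 0.0270, adjusted p = 0.378 in edgeR). Nr5a1 had 93.4 and 38.2 CPM in cKO, and 78.6, 106.6, 301, 281, 243 and 129.6 CPM in WT (cKO over WT, -1.51 ± 0.63 on the log2 scale, unadjusted p = 0.0303, adjusted p = 0.380 in edgeR). Among the WT libraries, replicates 1 and 2 thus held the 2 highest values of Wt1 and of Amh, and the 2 lowest of Nr5a1. Between the libraries numbered 1 and 2 the log2 fold changes were 0.81 for Wt1 and -0.41 for Nr5a1.

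**Figure D4:**
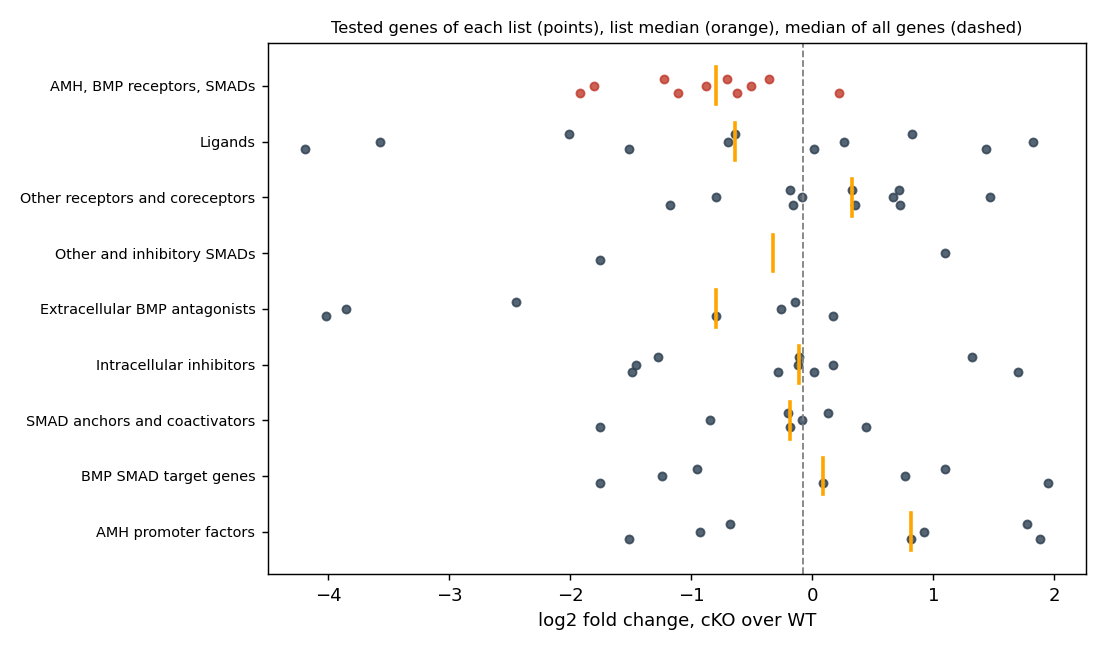
Log2 fold change, cKO over WT, of the tested genes in each list (points), with the median of the list (orange) and that of all 15102 genes (dashed, at -0.08). The 10 genes AMH to SMAD (red) have 9 points below 0 and a median of -0.79, and the lists of other receptors and of AMH promoter factors have medians of 0.32 and 0.82, the second of which is -0.31 without cKO replicate 1.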

How the data were processed

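Per the submitters' processing notes, reads were handled with HISAT2 and Salmon on mm10; their versions and the annotation were not given in the sources used here. For each library, the authors deposited estimated counts of reads, TPM values (scaled by length and library) and lengths for 36635 rows. The 1548 rows with a transcript identifier only (0.435% to 0.739% of reads) were left out. Before testing, the estimated counts that the authors deposited were rounded; those of Bmpr2 were not whole in 8 libraries and those of Smad1 in 1 (tolerance 0.001).

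Genes were kept by filterByExpr (minimum count 10, minimum total 15), which left 15102. Groups were compared with edgeR 4.0.16 in R 4.3.3 (glmQLFit and glmQLFTest, TMM, group as the only term, all 8 libraries), with Benjamini-Hochberg adjustment over all genes and a threshold of 0.05. Normalised CPM is after TMM, log2 fold changes are cKO over WT, and each SE was derived from the F statistic. Dispersion was equivalent to a coefficient of variation of 0.699 between libraries. Alternatives used DESeq2 1.42.0 and limma 3.58.1. Intervals and the limit of 3 reads cover counting error only, since Smart-seq2 reads carry no molecular identifiers. All 28 pairs of libraries differed by more than sampling noise (chi-square per degree of freedom from 12.998 to 99.5). On simulated counts for cKO against WT (15102 genes, 200 changed), the test called 12.2% of the genes given a 4-fold change, 64.6% of the genes given a 16-fold change and 2 unchanged genes.

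The members, lists and the set of libraries numbered 1 and 2 were chosen with earlier results of these data known. Named genes were the 10 members, Hif1a, the 2 members of each list with the smallest p, and the 5 genes most like Amh and Amhr2 (mean of at least 20 CPM, names other than Gm or Rik numbers). Acvr1, Bmp2, Bmp4, Bmp6, Bmp7, Fshr, Id1, Smad9, Smurf2 and the genes of the closing section fall outside this rule and were added after their values were seen. The 5 ratios were chosen after the members' values were seen. Coordinates are from GENCODE M21 (GRCm38, the assembly mm10 denotes), whose names matched 34200 of 35087 rows. One gene that the rule names is not reported here.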

Additional observations from a re-analysis of the deposited data

Results flagged for a closer look

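Bmpr1a in WT replicate 1 stood apart from the other WT libraries. It had 14.3 CPM there, while the nearest WT library had 38.7 CPM, and this gap was 0.719 of the whole WT range, above the 95% critical value of Dixon for 6 samples. About 1 in 20 groups passes that limit by chance, and 10 genes were examined.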

How the results depend on the processing

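Of the 10 genes, Bmpr1b, Bmpr2, Smad1 and Smad2 were below 0 in cKO under all 18 alternatives. With detected genes as a covariate the log2 fold change changed sign for Amh (-2.39), Smad3 (0.24), Smad4 (0.61), Smad5 (0.31), Smad7 (-0.32) and Tgfbr1 (-0.15). In the libraries numbered 1 and 2 alone it changed for Amh (-1.11) and Smad4 (0.44), with limma on log2(TPM + 1) for Bmpr1a (0.0216), and with limma-voom for Bmp15 (0.75) and Gdf9 (0.29). With a library left out, the range was -0.74 to 1.04 for Amh, -1.09 to 0.0290 for Amhr2 and -1.79 to 0.0465 for Smad4, and for the log2 read ratios it was -0.92 to 1.11 for Smad3 to Smad2 (-0.16 lacking WT replicate 1, -0.03 lacking WT replicate 6, and lowest lacking cKO replicate 1) and -0.98 to 2.06 for Smad5 to Smad1 (lowest without cKO replicate 1). With limma-voom the value for Amh was 2.62. The cause was not tested. The count of genes called, 0 in the chosen fit, was 478 without a filter, 274 with DESeq2 and 6 with limma on log2(TPM + 1), and from 0 to 1 with a library left out. At an unadjusted p under 0.05 it was 1855, against 3486 without a filter, 490 with detected genes as a covariate, 292 in the libraries numbered 1 and 2, 865 without cKO replicate 2 and 3015 without WT replicate 1. Without a filter, edgeR's adjusted p was under the threshold for, among others, Bmpr1b (0.0459), Bmp15 (0.0263), Gdf9 (5.03e-05) and Wt1 (0.0219). Scaling by DESeq2's size factors in place of TMM put the median of all genes at 0.05 in place of -0.08. List medians changed sign or moved beyond their spread in 28 of 144 alternatives.

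The groups share the replicate numbers 1 and 2, but no label says that a number marks a shared animal or batch. The deviations from the group means correlated at -0.30 between the libraries numbered 1 and at -0.17 between those numbered 2. With 2 cKO libraries, the deviations of 1 are those of the other with the sign turned. The 2 correlations are therefore not separate evidence on pairing. With the number as a replicate block, 1 gene was called and 179 had an unadjusted p under 0.05, and the log2 fold change was -1.33 for Amh, 0.13 for Smad4 and -0.22 for Bmpr1b. Depth limits the values of cKO replicate 2, where Bmpr1a, Bmpr1b and Smad2 rest on 8 or 9 reads.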

Other observations

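Further genes of SMAD feedback were read by library and were chosen after their values were seen. Bambi, which encodes a decoy receptor for BMP and TGF-β signals, had 22.3 and 19.1 CPM in cKO, and 1.10, 1.91, 1.95, 9.91, 14.3 and 8.51 CPM in WT replicates 1 to 6, so that the groups did not overlap, as in 6.02% of all genes in this direction (edgeR adjusted p = 0.447). Pmepa1, a TGF-β-induced gene whose product retains SMAD2 and SMAD3, had 260.3 and 82.0 CPM in cKO, and 162.7, 89.7, 48.0, 24.7, 20.4 and 69.4 CPM in WT (edgeR adjusted p = 0.430), where WT replicates 1 and 2 lay within the cKO range. Zfpm2, which encodes a GATA4 cofactor, had 40.1 and 31.4 CPM in cKO and 9.57 to 28.6 CPM in WT, again without overlap, beside the same 6.02% (edgeR adjusted p = 0.514).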
